A study of Mus musculus with 32 samples.

Results

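The Sox, Tbx and Pax genes encode 3 families of developmental transcription factors, and their RNA was followed here through the first cleavage of the mouse embryo with and without drugs that change histone acetylation. The members were all protein-coding genes whose GENCODE M21 symbol is Sox, Tbx or Pax followed by a number alone. The rule found 41 genes, of which 19 were Sox, 13 Tbx and 9 Pax genes, among 55385 genes in the tables and 21328 protein-coding ones. The rule reads the symbol alone and no measured value.

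Total RNA was sequenced from wild-type embryos made by in vitro fertilization, with eggs and sperm from B6D2F1/J mice aged 6 to 8 weeks, in 8 groups of 2 libraries. Zygotes, early 2-cell embryos and late 2-cell embryos were cultured with the solvent DMSO or with A-485, a small molecule that blocks the acetyltransferase activity of CBP and p300, at 10 µM between 4 and 20 hours after insemination (hpi). The late 2-cell embryos of this set were thus collected after A-485 had been washed off. The paper reports that acetylation at H3K27 returned to the control level after removal of the drug. It also reports that all embryos treated this way arrested at the 2-cell stage. A second set of late 2-cell embryos received DMSO or trichostatin A (TSA), an inhibitor of histone deacetylases, at 50 nM from 8 to 28 hpi. For this TSA treatment too the paper reports developmental arrest, and it reports raised H3K27 acetylation at this dose. Libraries were made from whole embryos, so fewer cells with a transcript and less of it per cell cannot be told apart. The labels do not say whether the 2 libraries of a group came from separate cultures, so the p-values measure only the spread between these libraries, which may be technical. Lists of accessible chromatin sites from ATAC-seq, each pooled over replicates, were used for DMSO and A-485 embryos of the late 1-cell stage and of the early 2-cell stage.

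Sox proteins bind DNA through an HMG box related to that of the sex-determining factor Sry and bend it. T-box proteins share the DNA-binding domain of Brachyury, and Pax proteins carry a paired domain, in some members together with a homeodomain. Most members are known for the cell types they specify after implantation, such as neural tube, cartilage, heart, limb and kidney. Sox2 is the best known exception, since with Oct4 it maintains the pluripotent cells of the blastocyst.

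The libraries held 13206163 to 32585987 expected counts, the estimated number of read pairs per gene. All 656 counts of the members were whole numbers to within 0.01, although reads of genes that overlap a member can still be among them. Levels are given as FPKM, which scales fragments by transcript length and library size, as deposited. For 13 members the transcript length behind the FPKM differed by more than 1.5-fold between libraries, because the mix of isoforms was estimated in each library, so that counts are given beside FPKM where it matters. The markers of the labelled stages were checked too. The summed level of 5 genes of the 2-cell embryo was 340 to 384 FPKM in early 2-cell DMSO libraries against 8.82 to 12.7 FPKM in zygotes.

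Of the 41 genes, 31 reached a mean of 1 FPKM in at least 1 group. The other 10 stayed below it in all 8 groups, namely Pax1, Pax4, Pax7, Pax8, Sox14, Sox18, Tbx5, Tbx6, Tbx10 and Tbx22. With DMSO, 12 members reached 1 FPKM in zygotes, 16 in early 2-cell embryos and 14 in each set of late 2-cell embryos. After A-485 the number was 9 in zygotes, 11 at early 2-cell and 25 at late 2-cell. After TSA it was 29 at late 2-cell, 17 of them Sox genes. The share of all genes above this cutoff was not counted, and the cutoff is not equal between groups. In the A-485 experiment the FPKM of all genes summed to 1287260 and 1438064 in late 2-cell DMSO libraries and 2045551 and 1849898 after A-485. In the TSA experiment the sums were 1530101 and 1679604 with DMSO and 1721713 and 1940277 with TSA.

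**Figure D1:**
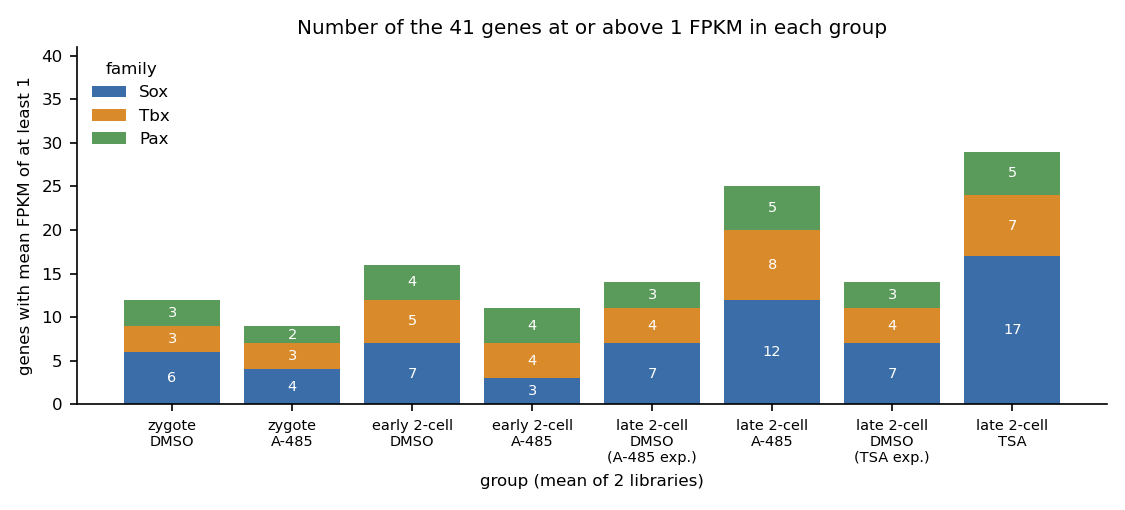
Number of the 41 genes with a mean level of at least 1 FPKM (y axis) in each of the 8 groups (x axis, mean of 2 libraries), stacked by family. The bars of drug-treated late 2-cell embryos reach 25 (A-485) and 29 (TSA) against 14 in either set of controls, while at early 2-cell the A-485 bar (11) is lower than the DMSO bar (16). The FPKM of all genes also sums higher in the drug-treated late 2-cell libraries, so the cutoff is not equal between groups.

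The members together took a nearly constant share of reads in untreated embryos. In CPM (counts on the members scaled by the library total) it was 387 to 395 in zygotes with DMSO, 377 to 382 at early 2-cell and 356 to 391.98 at late 2-cell. A few genes that changed between stages carried it. Tbx4 and Sox8 had 6008 and 3320 of 11894 member counts in zygote DMSO replicate 1. Tbx3 had 4677 of 9028 in late 2-cell DMSO replicate 1 of the A-485 experiment. A-485 embryos had 285 to 297 CPM at early 2-cell and 549 to 563 at late 2-cell. TSA embryos had 721 to 758 CPM, above all other libraries.

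**Figure D2:**
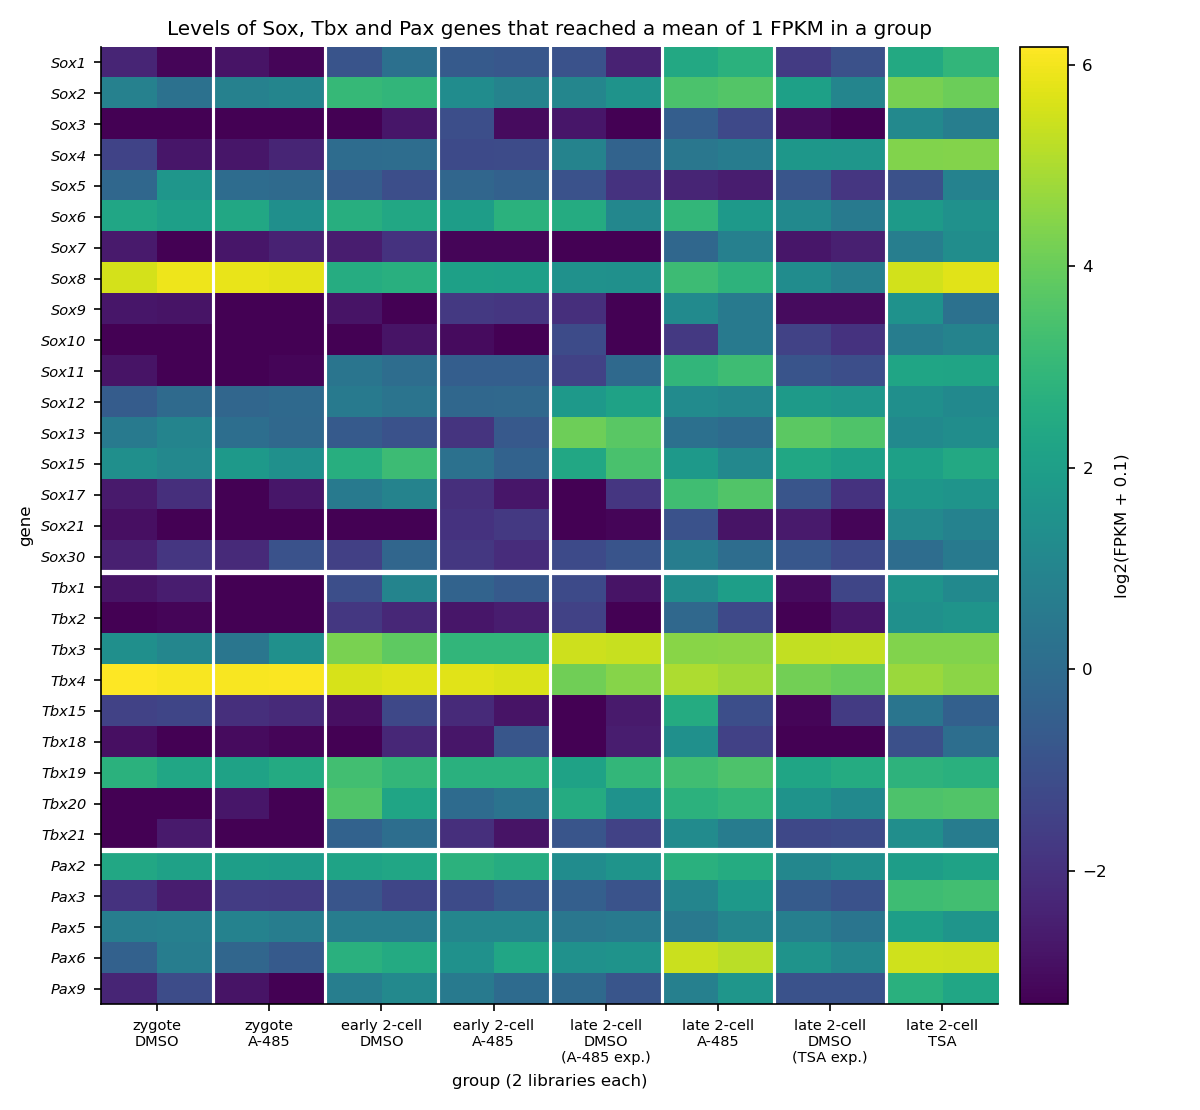
Levels of the 31 genes that reached 1 FPKM (rows) in the 8 groups of 2 libraries (columns, 1 cell per library), coloured by log2(FPKM + 0.1). Tbx4 is brightest in zygotes, Sox8 in zygotes and after TSA, and Tbx3 and Sox13 in late 2-cell controls. A block of Sox and Pax genes, Pax6 among them, brightens in the late 2-cell libraries given a drug.

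The highest levels in untreated embryos were those of Tbx4, Sox8 and Tbx3. Tbx4 (chr11:85886422-85916097, plus strand, GRCm38), a gene of hindlimb and lung development, was the highest member in zygotes with 72.1 and 68.2 FPKM, read 48.9 and 52.9 FPKM at early 2-cell and 17.4 and 21.9 FPKM at late 2-cell. Sox8 (chr17:25565892-25570686, minus strand), a SoxE gene of testis and neural crest, read 46.7 and 61.2 FPKM in zygotes, 5.79 and 6.27 FPKM at early 2-cell and 2.72 and 2.65 FPKM at late 2-cell. Tbx3 (chr5:119670669-119684724, plus strand), which acts in limb and heart and in pluripotent cells, ran the other way, from 2.56 and 1.95 FPKM through 19.01 and 14.04 FPKM to 43.5 and 41.4 FPKM, and was the highest member of late 2-cell controls. In each of these 3 genes no library of one stage overlapped those of the next. The same held for 98.4% of all genes called at the first step and 98.5% at the second, by the rule given below.

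From zygote to early 2-cell with DMSO, 9 members rose and 1 fell of 32 tested, by edgeR's quasi-likelihood test with Benjamini-Hochberg adjustment over all genes, counting genes that changed 2-fold or more and averaged 1 FPKM or more in a group. Over all genes tested, 11.2% rose and 14.9% fell by the same rule. The median log2 fold change was 1.96 over the members tested and 0.08 over all genes tested.

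The early risers came from all 3 families. Tbx3 rose with a log2 fold change of 3.08 ± 0.17 (SE, adjusted p = 6.28e-09). Sox2 (chr3:34650405-34652461, plus strand) went from 1.69 and 1.07 FPKM to 8.20 and 7.60 FPKM, a log2 change of 2.60 ± 0.28 (adjusted p = 4.21e-06). Pax6 (chr2:105668900-105697364, plus strand), the eye and forebrain regulator, went from 0.67 and 1.51 FPKM to 6.48 and 5.52 FPKM, by 2.73 ± 0.32 (adjusted p = 1.14e-05). These 3 were expressed, at a low level, before they rose.

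Tbx20 (chr9:24718138-24774303, minus strand) was not. This regulator of heart muscle had 1 count over both zygote libraries and 749 over both early 2-cell libraries, a ratio of 1089 after depth correction with a 95% counting interval of 195 to 43058 (adjusted p = 3.93e-09). Its FPKM of 11.6 and 4.73 at early 2-cell came from 346 and 403 counts, an example of the effect of transcript length. Sox15, the single SoxG gene, which binds sites like those of Sox2, rose from 2.58 and 2.06 FPKM to 6.09 and 9.03 FPKM (1.79 ± 0.39, adjusted p = 0.00183). Sox17, a SoxF factor of endoderm, rose from 0.06 and 0.14 FPKM to 1.41 and 1.82 FPKM (3.55 ± 0.77, adjusted p = 0.00179). Sox11, Pax9 and Tbx1 completed the 9, each at a mean of 1.07 to 1.85 FPKM at early 2-cell. Sox11 was no longer called without early 2-cell DMSO replicate 1, nor Tbx1 without replicate 2.

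Sox8 was the only member called lower at this step and fell by 2.99 ± 0.13 on the log2 scale (adjusted p = 6.9e-10).

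From early to late 2-cell with DMSO, 3 of 32 members tested rose and 7 fell, where 15.9% of all genes tested rose and 8.92% fell. Sox13 (chr1:133382303-133424377, minus strand), a SoxD factor without an activation domain of its own, went from 0.54 and 0.42 FPKM to 16.9 and 13.2 FPKM, a log2 fold change of 4.86 ± 0.29 (adjusted p = 1.59e-07). Tbx3 rose again by 1.38 ± 0.15 (adjusted p = 1.8e-05), and the SoxC gene Sox12 went from 1.41 and 1.15 FPKM to 3.39 and 4.33 FPKM (1.58 ± 0.27, adjusted p = 0.000626). Tbx3 was thus the only member that rose at both steps.

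Sox2 fell back to 1.96 and 2.83 FPKM, by 1.73 ± 0.29 on the log2 scale (adjusted p = 0.000489). Tbx4 fell by 1.38 ± 0.14 (adjusted p = 6.72e-06) and Sox8 by 1.56 ± 0.28 (adjusted p = 0.000752). Sox17 (-3.65 ± 1.12), Pax9 (-1.42 ± 0.41), Tbx1 (-3.31 ± 1.00) and Tbx20 (-1.11 ± 0.31) were also called lower. The early 2-cell controls enter both stage comparisons, so a high value there raises one fold change and lowers the other. For Tbx20 the FPKM of the stages overlapped, with 5.60 and 2.75 FPKM at late 2-cell (236 and 108 counts), and the call (adjusted p = 0.0139) was lost without late 2-cell DMSO replicate 2, where the log2 fold change was -0.70. Pax9 and Tbx1 were likewise lost without that library or without early 2-cell DMSO replicate 2.

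**Figure D3:**
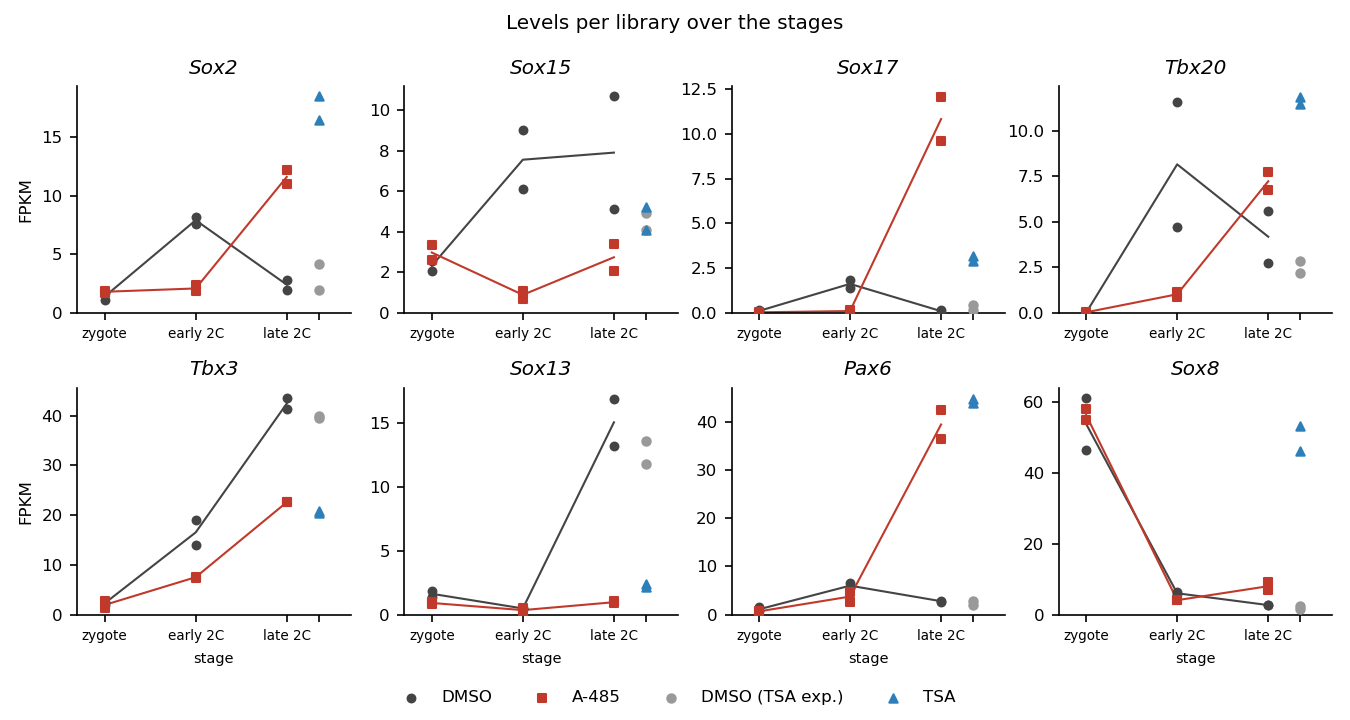
FPKM per library (y axis, from 0, scaled for each gene) by stage for 8 genes. Dark circles are DMSO and red squares A-485 with lines through the means of 2 libraries, and to the right of late 2-cell stand the TSA experiment's DMSO (grey circles) and TSA (blue triangles) libraries. Sox2, Sox17 and Tbx20 peak at early 2-cell with DMSO and at late 2-cell with A-485.

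A-485 left the members of zygotes without a call, in either direction, among the 25 tested, where 0.00548% of all genes tested were called higher and 0.0657% lower. DESeq2 also called none, and 2 members had an unadjusted p under 0.05 (Pax9 and Sox9, both under 0.5 FPKM) against 1073 of all genes. Tbx4 read 67.07 and 68.55 FPKM and Sox8 58.0 and 54.9 FPKM after A-485. The difference in Tbx4 was -0.04 ± 0.07 on the log2 scale.

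At early 2-cell, 5 of 34 members tested fell after A-485 and none rose by edgeR, where 7.9% of all genes tested fell and 0.402% rose. At an unadjusted p under 0.05 there were 12 members and 4873 of all genes in either direction, and DESeq2 called 0 members higher. The 5 were Sox2, Sox15, Sox17, Tbx3 and Tbx20. The comparison with zygotes shares the early 2-cell controls with this one, and its values for the 5 are those given above. The median log2 fold change was -0.66 over the members tested and 0.00 over all genes tested.

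Tbx20 read 11.6 and 4.73 FPKM with DMSO and 0.89 and 1.14 FPKM with A-485, from 346 and 403 counts against 50 and 47. Its log2 fold change was -3.01 ± 0.26 (adjusted p = 4.65e-06). Sox15 read 6.09 and 9.03 FPKM with DMSO and 1.08 and 0.69 FPKM with A-485, a change of -3.07 ± 0.49 (adjusted p = 0.000988). In both genes the highest treated library lay well below the lowest control.

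Sox2 read 8.20 and 7.60 FPKM with DMSO and 2.33 and 1.82 FPKM with A-485, a change of -1.91 ± 0.25 (adjusted p = 0.000226). Its reads may include some of Sox2ot, a long noncoding transcript that overlaps Sox2 on the same strand and reached 6 FPKM. Sox17 fell from 1.41 and 1.82 FPKM to 0.14 and 0.05 FPKM (-3.80 ± 0.84, adjusted p = 0.00952). Tbx3 fell least, from 19.01 and 14.04 FPKM to 7.60 and 7.44 FPKM (-1.31 ± 0.15, adjusted p = 7.25e-05), and remained above its zygotic level of 2.56 and 1.95 FPKM. Opposite-strand transcripts overlap Sox15 (Mpdu1, up to 14.9 FPKM), Sox17 (Gm37587, up to 4.33 FPKM) and Tbx3 (Tbx3os1, up to 7.03 FPKM). Their reads may be included too, since strand use in the counting is not stated.

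Pax6, Sox4 and Tbx21 were not called. Pax6 read 2.7 and 4.78 FPKM after A-485 against 6.48 and 5.52 FPKM (-0.83 ± 0.29, adjusted p = 0.0938). Sox4 and Tbx21 had adjusted p-values of 0.0379 and 0.0264, but their means did not reach 1 FPKM in either group. Tbx4, Tbx19, Pax2, Pax5 and Sox6, whose levels did not change at the first cleavage by the call rule, had log2 differences between 0.01 and 0.46 after A-485. The 5 markers of the 2-cell embryo fell with the members, to a summed 5.73 to 6.26 FPKM, and all 5 were called lower.

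ATAC-seq peaks show where chromatin was open to the Tn5 transposase at these stages. A peak within 1 kb of an annotated start site was found for 5 members in late 1-cell DMSO embryos and for 4 after A-485, which is 12.2% and 9.76% of the 41. Over all protein-coding genes the shares were 26.3% and 24.8%. In early 2-cell embryos 8 members had a promoter peak with DMSO (19.5%, against 31.9% of protein-coding genes) and 17 after A-485 (41.5%, against 40.96%). The lists pooled both replicates and held 27693 and 13712 peaks in early 2-cell DMSO and A-485 embryos, so there was no test of these counts.

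The 8 members with a promoter peak at early 2-cell in DMSO were Pax9, Sox2, Sox12, Sox13, Sox15, Sox30, Tbx3 and Tbx20. After A-485, 7 of them still had one and only Sox30, a gene of spermatids, did not. Another 10 members had one after A-485 but not with DMSO, namely Pax1, Pax3, Pax5, Pax6, Sox6, Sox18, Tbx1, Tbx2, Tbx18 and Tbx21. Of all protein-coding genes 6796 had a promoter peak with DMSO and 8736 after A-485. Peaks gained, kept or missing in every list were not counted over all genes. Of the 5 genes whose RNA fell at early 2-cell, 4 had a promoter peak in both lists and Sox17 had none in any list. Pax9 was the only member with a promoter peak in all 4 lists, and 23 members had none in any.

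**Figure D4:**
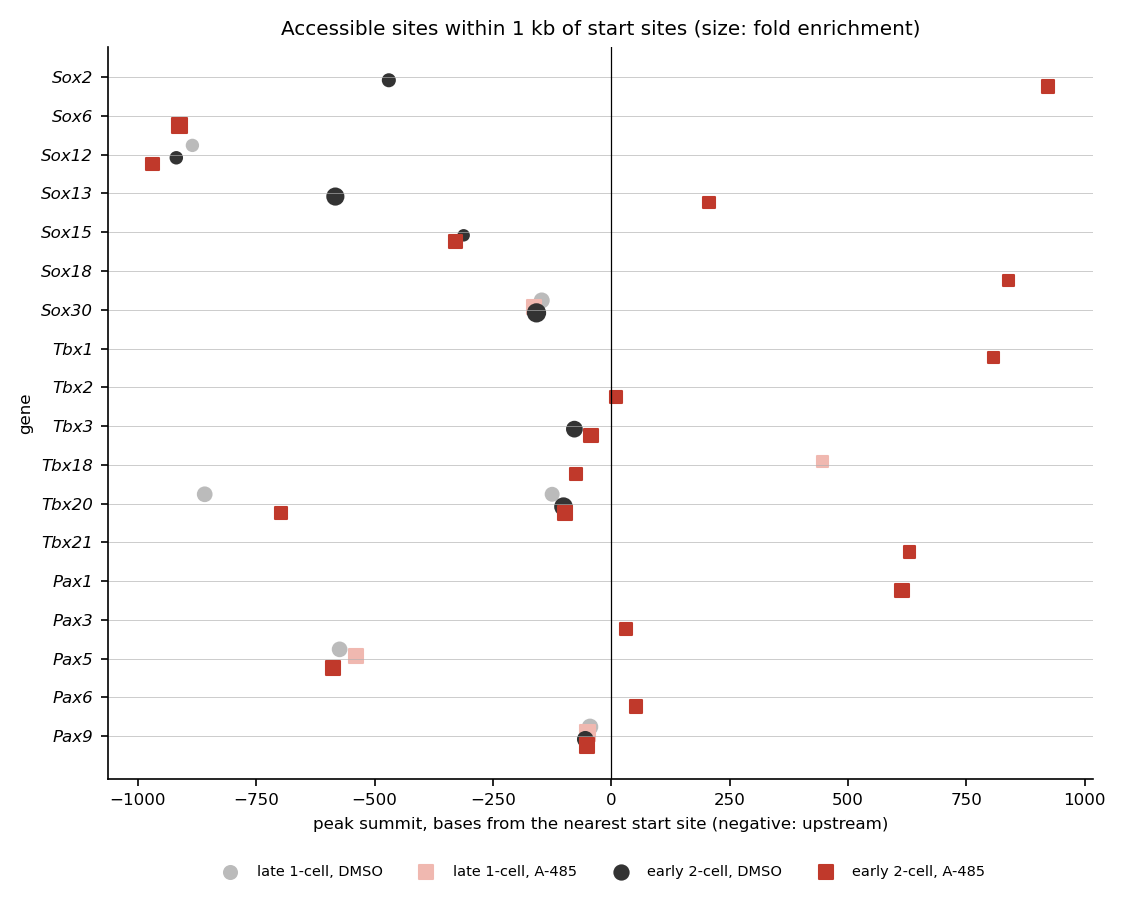
Distance of each ATAC-seq peak summit from the nearest annotated start site in bases (x axis, negative is upstream) for the 18 genes with a promoter peak in any list (y axis), with marker size giving fold enrichment. Circles are DMSO and squares A-485, pale for late 1-cell and dark for early 2-cell. Dark squares in rows without a dark circle mark the 10 genes with a peak at early 2-cell after A-485 and not with DMSO, and the Sox2 and Sox13 summits lie on opposite sides of the start site in the 2 lists.

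In Sox2 and Sox13 the peak after A-485 was not the one of the controls. For Sox2 the summit stood at -470 bases from the start site with DMSO (fold enrichment 5.50) and at 923 with A-485 (5.94). For Sox13 it stood at -583 with DMSO (9.91) and at 206 with A-485 (5.00). Tbx20 kept its summit, at -101 and -98, with fold enrichments of 10.6 and 6.92, and Tbx3 kept its own at -78 and -43, with 8.26 and 6.97.

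The promoters of 6 members are printed here because they show the range of these patterns and of the calls. Each is the RefSeq window of GRCm38.p6 from 250 bases before to 50 bases after a start site, read 5′ to 3′ on the strand of the gene, with CG dinucleotides in capitals. Tbx20 (chr9:24774254-24774553, minus strand, 26 CG), Sox2 (chr3:34649745-34650044, plus strand, 27 CG), Sox15 (chr11:69654787-69655086, plus strand, 5 CG), Pax9 (chr12:56695221-56695520, plus strand, 11 CG), Sox13 (chr1:133424163-133424462, minus strand, 40 CG) and Sox8 (chr17:25570637-25570936, minus strand, 21 CG) follow in this order.
Tbx20: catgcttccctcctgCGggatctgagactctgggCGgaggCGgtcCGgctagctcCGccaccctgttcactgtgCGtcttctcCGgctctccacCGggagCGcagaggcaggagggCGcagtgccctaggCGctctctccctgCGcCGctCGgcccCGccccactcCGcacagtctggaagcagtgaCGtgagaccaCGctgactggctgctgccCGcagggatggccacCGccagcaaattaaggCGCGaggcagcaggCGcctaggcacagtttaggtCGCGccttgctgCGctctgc
Sox2: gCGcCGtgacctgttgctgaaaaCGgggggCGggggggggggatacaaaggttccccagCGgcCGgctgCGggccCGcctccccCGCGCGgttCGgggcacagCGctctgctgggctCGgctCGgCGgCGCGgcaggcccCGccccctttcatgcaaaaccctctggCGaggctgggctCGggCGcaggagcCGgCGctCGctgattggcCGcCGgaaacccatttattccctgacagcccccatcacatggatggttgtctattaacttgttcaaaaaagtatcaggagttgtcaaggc
Sox15: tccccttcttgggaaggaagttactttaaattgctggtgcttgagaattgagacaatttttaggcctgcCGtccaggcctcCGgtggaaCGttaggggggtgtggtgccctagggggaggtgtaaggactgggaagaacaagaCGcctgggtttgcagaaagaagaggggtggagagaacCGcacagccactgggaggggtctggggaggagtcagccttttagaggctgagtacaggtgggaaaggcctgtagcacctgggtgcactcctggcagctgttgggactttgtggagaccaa
Pax9: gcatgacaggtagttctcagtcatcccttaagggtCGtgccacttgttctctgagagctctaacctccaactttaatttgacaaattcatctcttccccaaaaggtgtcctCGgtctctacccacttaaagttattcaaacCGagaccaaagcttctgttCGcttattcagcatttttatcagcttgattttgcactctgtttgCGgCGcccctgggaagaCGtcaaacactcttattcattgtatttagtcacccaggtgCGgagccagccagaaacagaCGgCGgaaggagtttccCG
Sox13: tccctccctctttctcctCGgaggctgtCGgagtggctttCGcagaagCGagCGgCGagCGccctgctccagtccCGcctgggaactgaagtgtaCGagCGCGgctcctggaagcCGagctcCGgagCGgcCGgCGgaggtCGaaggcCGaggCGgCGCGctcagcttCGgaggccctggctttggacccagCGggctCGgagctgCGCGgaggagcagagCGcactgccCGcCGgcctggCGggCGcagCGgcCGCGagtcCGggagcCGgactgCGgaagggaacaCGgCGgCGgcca
Sox8: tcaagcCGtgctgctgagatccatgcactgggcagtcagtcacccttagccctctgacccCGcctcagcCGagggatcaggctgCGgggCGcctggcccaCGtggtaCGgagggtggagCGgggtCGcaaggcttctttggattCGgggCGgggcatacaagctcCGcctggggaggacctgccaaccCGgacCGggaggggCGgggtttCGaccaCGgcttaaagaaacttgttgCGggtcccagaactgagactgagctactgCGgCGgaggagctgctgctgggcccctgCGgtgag

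The windows differ in how the peaks cover them. All 300 bases of the Tbx20 window lay in a peak in late 1-cell DMSO and in both early 2-cell lists, but none in the late 1-cell A-485 list, where the nearest peak was 77276 bases away. All 300 bases of the Sox2 window, which belongs to a RefSeq start site upstream of the gene as GENCODE places it, lay in the early 2-cell DMSO peak, and after A-485 the nearest peak was 826 bases away. The Sox13 window had the reverse, with 0 bases in a DMSO peak (229 bases away) and all 300 in the A-485 peak. Of the Sox15 window 214 bases lay in the DMSO peak and 251 in the A-485 peak of early 2-cell embryos, and of the Pax9 window 72 and 258. No list had a peak in the Sox8 window.

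Most member promoters were rich in CG. Of the 41 members 29 had a window in the RefSeq table, and their median was 17 CG dinucleotides against 7 over 27025 genes. The 11 with a window among those that rose after TSA had a median of 21 with a range of 11 to 37, and the 17 not called or not tested there a median of 8 with a range of 1 to 47. Sox13, the only member called lower after TSA that had a window, held 40. The medians of all genes called or not called after TSA were not computed. The letters ATTGTT, the core of many Sox sites, stood on either strand in 2 of 40 member windows and in 10.7% of all 32851 windows. AGGTGT, the core of T-box sites, stood in 5 of 40 and in 13.7% of all, including the Sox15 window at bases 118 to 123 and the Pax9 window at bases 103 to 108.

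Peaks farther away were counted as well, a count chosen after the promoter counts were seen. Within 50 kb of member start sites, and over 2.5 kb from any start site, there were 40 peaks in early 2-cell DMSO embryos and 6 after A-485, where the whole lists held 16719 and 3976 such peaks. Sox12 had 10 of them with DMSO and 0 with A-485, and the glial and neural crest gene Sox10 had 4 and 0. At late 1-cell the counts were 12 with DMSO and 5 with A-485, where the whole lists held 4053 and 1743 such peaks. A peak near the neighbours Tbx2 and Tbx4 was counted once.

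At late 2-cell the picture after A-485 was reversed for several members. Of 34 members tested, 14 were higher and 4 lower than DMSO, where 10.5% of all genes tested were higher and 16.8% lower. The median log2 fold change was 1.77 over the members tested and 0.28 over all genes tested. The 14 were Pax3, Pax6, Pax9, Sox1, Sox2, Sox7, Sox8, Sox9, Sox11, Sox17, Tbx1, Tbx15, Tbx20 and Tbx21, and the FPKM of treated and control libraries did not overlap for any called member, as for 97.8% of all called genes.

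Pax6 had the highest level of all members in these embryos. It read 2.69 and 2.86 FPKM with DMSO and 42.4 and 36.5 FPKM with A-485, which is higher by 3.75 ± 0.25 on the log2 scale (adjusted p = 2.47e-07). Sox17 read 0 and 0.18 FPKM with DMSO and 9.58 and 12.1 FPKM with A-485, a change of 6.17 ± 0.79 (adjusted p = 6.08e-05) that rests on 0 and 6 control counts against 162 and 188. Both libraries of the drug stood far above the controls.

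Among the SoxB1 genes, which hold cells in a neural progenitor or pluripotent state, Sox2 read 1.96 and 2.83 FPKM with DMSO and 11.0 and 12.2 FPKM with A-485 (2.08 ± 0.31, adjusted p = 0.000235). Sox1 read 0.43 and 0.09 FPKM with DMSO and 5.17 and 6.51 FPKM with A-485 (4.24 ± 0.53, adjusted p = 5.07e-05). Sox3, the X-linked member, was not called and stayed under 1 FPKM. Of the SoxC genes, which act in neuronal precursors, Sox11 went from 0.27 and 0.84 FPKM to 7.60 and 9.23 FPKM (3.75 ± 0.39, adjusted p = 9.75e-06). Sox4 read 1.80 and 0.71 FPKM against 1.26 and 1.49 FPKM and was not called (-0.09 ± 0.49), and Sox12 was lower, at 2.29 and 1.99 FPKM against 3.39 and 4.33 FPKM. The 3 SoxC genes thus had different calls.

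The SoxF gene Sox7, a regulator of blood vessels, had 0 counts in both DMSO libraries and 109 over both A-485 libraries, which is at least 23.9-fold higher with 3 counts per library as the floor (adjusted p = 0.000392). The cartilage regulator Sox9 went from 0.14 and 0 FPKM to 2.22 and 1.38 FPKM (4.34 ± 0.95, adjusted p = 0.00333). Sox8 rose from 2.72 and 2.65 FPKM to 9.13 and 6.94 FPKM (1.41 ± 0.35, adjusted p = 0.00692), well below its zygotic level. Tbx1, of the pharyngeal arches, went from 0.34 and 0.04 FPKM to 2.40 and 3.90 FPKM (4.23 ± 0.85, adjusted p = 0.00189).

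Several calls of this comparison were near a threshold. Pax3, of neural crest and muscle precursors, changed by 2.17 ± 0.51 on the log2 scale (adjusted p = 0.00507), Pax9 1.55 ± 0.51 (0.0319), Tbx20 1.16 ± 0.39 (0.0342), and Tbx21, the Th1 regulator T-bet, 2.11 ± 0.67 (0.0264). Pax9 was lost without any of 3 libraries, namely DMSO replicate 1, DMSO replicate 2 and A-485 replicate 2. Tbx20 and Tbx21 were lost without DMSO replicate 2 or A-485 replicate 1, where Tbx20 had 0.79 and 0.64. Tbx15 (4.50 ± 1.3, adjusted p = 0.0169) had 57 and 16 counts after A-485, which a short estimated transcript turned into 5.70 and 0.38 FPKM, and was lost without A-485 replicate 1. Sox7 was lost without A-485 replicate 2, since the level left was under 1 FPKM.

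The 4 lower members were Sox12, Sox13, Sox15 and Tbx3. Sox13 read 16.9 and 13.2 FPKM with DMSO and 1.05 and 0.89 FPKM with A-485, a change of -4.37 ± 0.31 (adjusted p = 3.49e-07), near its levels of 0.54 and 0.42 FPKM in early 2-cell controls. Tbx3 read 43.5 and 41.4 FPKM with DMSO and 22.6 and 22.6 FPKM with A-485 (-1.12 ± 0.12, adjusted p = 1.94e-05). Sox15 read 5.12 and 10.7 FPKM against 3.42 and 2.06 FPKM (-1.74 ± 0.58, adjusted p = 0.0345) and Sox12 changed by -1.04 ± 0.29 (adjusted p = 0.014). The last 2 were not called by DESeq2, with total-count scaling, or without DMSO replicate 2 or A-485 replicate 2. Tbx3 was not called with total-count scaling either, where its change was -0.92.

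Scaling to the mitochondrially encoded genes, whose share of reads was 19.5 to 20.7% after A-485 and 10.5 to 12.3% with DMSO, left 8 of the 14 higher members called. It moved the median of all genes by -0.97 and lowered the share of higher among all called genes from 38.6% to 14.6%. Pax3, Pax9, Sox8, Tbx15, Tbx20 and Tbx21 were then no longer called and kept a positive sign. The markers of oocyte and zygote summed to 1336 to 1358 FPKM after A-485 and 699 to 745 FPKM with DMSO, with 1 of 5 genes called higher. The 5 markers of the 2-cell embryo summed to 42.8 to 57.4 FPKM and 240 to 241 FPKM, with all 5 called lower. Their part in these results was not tested.

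The change of the A-485 effect between stages was tested itself, as an interaction. Of 36 members tested, 11 had a larger and 1 a smaller log2 fold change at late than at early 2-cell, where 7.6% and 7.38% of all genes tested did. The same contrast gave 15.0% in place of 50.7% of all calls as larger with mitochondrial scaling. Sox2, Sox17 and Tbx20 were called lower at early 2-cell and higher at late 2-cell, and the difference between the stages passed the test in all 3. For Sox2 it was 4.07 ± 0.44 (adjusted p = 1.22e-07) and for Tbx20 4.25 ± 0.50 (adjusted p = 4.31e-07). Sox15 and Tbx3 were lower at both stages, and the interaction called neither.

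Of the 4 drug comparisons TSA gave the largest number of higher members. Of 38 tested, 18 were higher and 2 lower than DMSO, where 13.8% of all genes tested were higher and 13.9% lower. The median log2 fold change was 3.05 over the members tested and 0.13 over all genes tested. The higher genes were 11 Sox, 4 Tbx and 3 Pax genes, and no treated library overlapped a control for any of the 20 called members, as for 98.6% of all called genes. The number called higher was 18 to 20 with any 1 library left out. The 5 markers of the 2-cell embryo summed to 337 to 354 FPKM after TSA and 139 to 169 FPKM with DMSO, with 2 called higher, and those of oocyte and zygote to 690.1 to 715 FPKM and 530.4 to 548 FPKM, with 1 of 5 called lower and none higher. Their part in these results was not tested.

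Sox8 reached the highest level. It read 2.33 and 1.66 FPKM with DMSO and 46.3 and 53.4 FPKM with TSA, a log2 fold change of 3.92 ± 0.13 (adjusted p = 7.8e-09). Sox8 had 46.7 and 61.2 FPKM in zygotes with DMSO, but these values are not on the same scale. The FPKM of all genes summed to 799722 and 812227 in those zygote libraries and to 1721713 and 1940277 after TSA. The other SoxE genes rose too. Sox9 had 4 counts over both DMSO libraries and 287 over both TSA libraries, a ratio of 75.1 with a counting interval of 29.0 to 278 (adjusted p = 2.64e-05), and Sox10 read 0.27 and 0.16 FPKM against 1.51 and 1.82 FPKM (3.02 ± 0.51, adjusted p = 0.000656). Sox10 missed the threshold when all 16 libraries were fitted together (adjusted p = 0.0949).

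All 3 SoxB1 genes were higher after TSA. Sox2 read 4.15 and 1.91 FPKM with DMSO and 18.5 and 16.5 FPKM with TSA (2.17 ± 0.30, adjusted p = 0.00015). Sox1 read 0.21 and 0.41 FPKM and then 5.33 and 7.54 FPKM (4.03 ± 0.32, adjusted p = 2.54e-06). Sox3 had 1 count over both DMSO libraries and 133 over both TSA libraries, a ratio of 139 with a counting interval of 24.6 to 5541 (adjusted p = 7.59e-05). Sox21, a SoxB2 gene that represses SoxB1 targets, went from 0.06 and 0.01 FPKM to 2.14 and 1.77 FPKM (5.30 ± 0.57, adjusted p = 2.28e-05). The antisense-strand transcript Gm4675 overlaps Sox21 and reached 8.85 FPKM, and whether the counting used strand is not stated.

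Sox4 read 3.13 and 3.07 FPKM with DMSO and 20.66 and 21.25 FPKM with TSA (2.40 ± 0.11, adjusted p = 5e-08). Its SoxC relative Sox11 went from 0.45 and 0.39 FPKM to 4.66 and 4.60 FPKM (3.09 ± 0.19, adjusted p = 2.84e-07), while Sox12 read 3.53 and 3.10 FPKM against 2.52 and 2.17 FPKM, a change of -0.86 ± 0.21 (adjusted p = 0.00636) that stayed under 2-fold. Of the SoxF genes Sox7 rose by 4.62 ± 0.51 (adjusted p = 2.91e-05) and Sox17 from 0.46 and 0.16 FPKM to 3.16 and 2.89 FPKM (3.13 ± 0.58, adjusted p = 0.0012). No SoxD gene was higher, although Sox5 had a mean of 1.07 FPKM after TSA and Sox6 3.09 FPKM.

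The Pax genes that rose were the same 3 as after A-485. Pax6 read 2.81 and 1.98 FPKM with DMSO and 44.8 and 44.0 FPKM with TSA (3.65 ± 0.15, adjusted p = 1.93e-08). Pax3 read 0.57 and 0.43 FPKM and then 9.23 and 9.68 FPKM (3.91 ± 0.23, adjusted p = 2.67e-07). Pax9, known from thymus, teeth and palate, went from 0.43 and 0.43 FPKM to 6.37 and 4.88 FPKM (2.95 ± 0.26, adjusted p = 4.66e-06). Pax2 of the kidney and Pax5 of B cells, at 3.80 and 4.28 FPKM and 3.87 and 2.97 FPKM after TSA, were not called, and the change of Pax5 was 0.57 ± 0.24 (adjusted p = 0.0841).

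Of the T-box genes Tbx2, a repressor of the heart and other organs, went from 0 and 0.05 FPKM to 2.62 and 2.89 FPKM (6.49 ± 0.63, adjusted p = 1.13e-05). Tbx20 read 2.83 and 2.16 FPKM with DMSO and 11.5 and 11.9 FPKM with TSA (1.71 ± 0.20, adjusted p = 4.27e-05). Tbx1 (3.48 ± 0.74, adjusted p = 0.00302) and Tbx21 (2.20 ± 0.44, adjusted p = 0.00213) also rose. Tbx15 had 119 counts over the TSA libraries against 3 in the controls, a ratio of 41.5 with a counting interval of 13.9 to 204, but its mean of 0.92 FPKM missed the cutoff. Tbx18, also below the cutoff, had 87 counts against 0, at least 15.2-fold higher with the same floor per library.

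Sox13 and Tbx3 were the members called lower. Sox13 read 13.6 and 11.8 FPKM with DMSO and 2.17 and 2.41 FPKM with TSA, a change of -2.98 ± 0.18 (adjusted p = 3.23e-07). Tbx3 read 39.6 and 40.0 FPKM with DMSO and 20.9 and 20.5 FPKM with TSA (-1.29 ± 0.08, adjusted p = 3.09e-07), and fell under 2-fold with total-count scaling, where it had -0.94. That scaling raised the share of higher among all called genes from 49.9% to 63.3% and moved their median by 0.35.

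**Figure D5:**
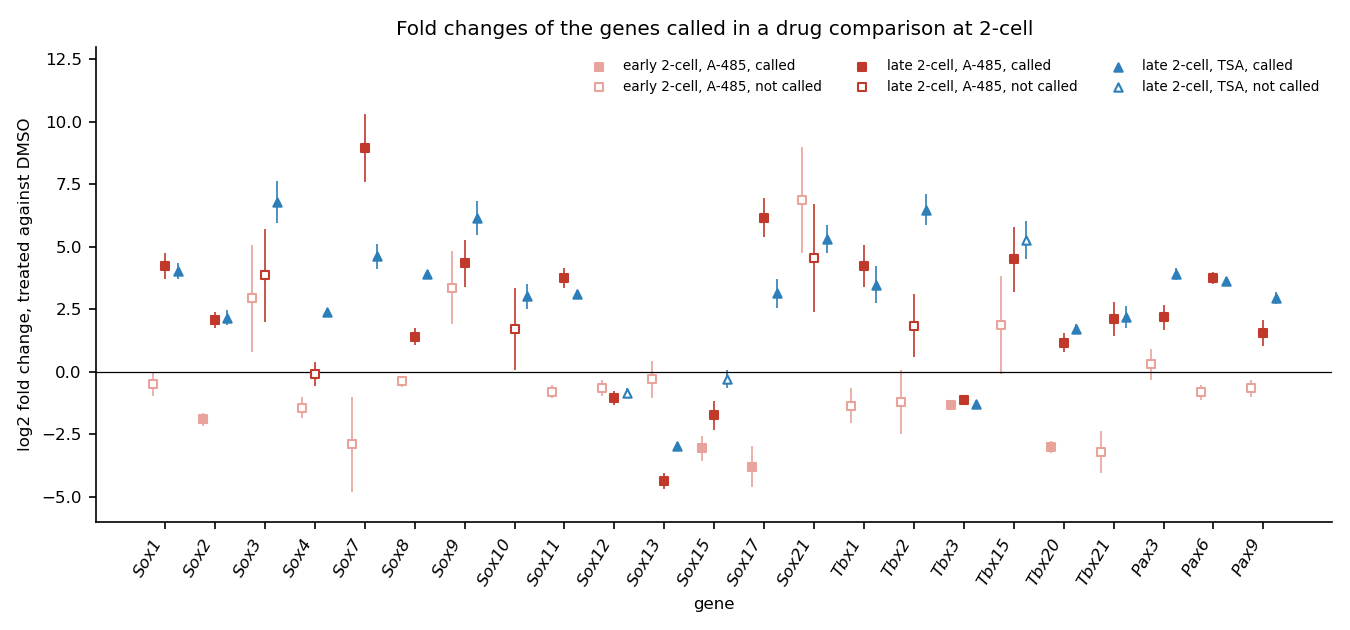
Log2 fold change against DMSO (y axis) of the 23 genes called in a drug comparison at the 2-cell stages, with bars of 1 SE, for A-485 at early 2-cell (pale red squares), A-485 at late 2-cell (red squares) and TSA at late 2-cell (blue triangles). Filled symbols were called, and fitted values of genes with almost no control counts, such as Sox7 after A-485 and Sox3, depend on the prior of the fit. Sox13 and Tbx3 lie below 0 under both drugs at late 2-cell, and the late 2-cell symbols of the 13 genes called higher under both drugs lie above 0.

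The late 2-cell results of the drugs are set side by side here. They come from separate experiments with their own controls, and dose and time window differed. Called higher under both were 13 members, namely Pax3, Pax6, Pax9, Sox1, Sox2, Sox7, Sox8, Sox9, Sox11, Sox17, Tbx1, Tbx20 and Tbx21. They were 92.9% of the members higher after A-485 and 72.2% of those higher after TSA, where the shared genes were 35.8% and 26.0% of all genes called higher among those tested in both. Sox3, Sox4, Sox10, Sox21 and Tbx2 were called higher after TSA and not after A-485, and Tbx15 the reverse. Sox13 and Tbx3 were called lower under both, and Sox12 and Sox15 after A-485 only. The shared ones were 2 of 4 members lower after A-485 and 2 of 2 lower after TSA. Over all genes called lower among those tested in both, the shared genes were 62.8% and 74.2%.

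The difference of the effects, each against its own controls, was tested for 39 members with a higher log2 fold change called after TSA for 5 and a lower one for 0, where 10.8% and 2.7% of all genes tested were called. At an unadjusted p under 0.05 there were 10 members and 7492 of all genes in either direction, and DESeq2 called 1 smaller. The 5 were Sox8 (2.62 ± 0.29, adjusted p = 2.99e-06), Sox4 (2.60 ± 0.42, adjusted p = 2e-04), Pax3 (1.85 ± 0.50, adjusted p = 0.0139), Sox13 (1.51 ± 0.34, adjusted p = 0.00404), which fell under both drugs and less after TSA, and Tbx2 (4.75 ± 1.47, adjusted p = 0.0317). For Sox3, Sox10, Sox21 and Tbx15 the difference was not called. Tbx2 had the opposite sign, -1.66, without DMSO replicate 1 of the A-485 experiment, which held most of its control counts, and Pax3 lost its call without any of 3 libraries, 1 of them TSA replicate 2. Mitochondrial scaling raised the share called larger from 80.0% to 94.1% of all calls.

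The controls of the experiments were compared too. Of 29 members tested none was called in either direction by edgeR, where 1.19% of all genes tested were higher in the TSA experiment and 0.136% lower. At an unadjusted p under 0.05 there was 1 member, Sox4, and 2777 of all genes, and DESeq2 called 1 member higher. Sox4 had means of 3.10 and 1.26 FPKM in the controls of the TSA and A-485 experiments, a log2 difference of 1.29 ± 0.36 (adjusted p = 0.0949).

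Other members were called in no drug comparison, and Tbx4, Tbx19, Pax2, Pax5 and Sox6 averaged more than 1 FPKM in all 8 groups. Tbx4 read 32.2 and 28.2 FPKM after A-485 at late 2-cell against 17.4 and 21.9 FPKM, a change of 0.42 ± 0.16 (adjusted p = 0.064). Tbx19, which drives Pomc in the pituitary, ranged from 4.31 to 11.4 FPKM over all libraries, and a pseudogene on its strand that reached 226 FPKM overlaps it. Pax2 ranged from 2.02 to 6.85 FPKM and had an adjusted p of 0.0227 at late 2-cell after A-485 at under 2-fold (0.95 ± 0.29). Pax5 ranged from 1.20 to 3.87 FPKM, and Sox6 from 1.38 to 7.76 FPKM. Sox5, at 0.07 to 3.04 FPKM, and Sox30, at 0.08 to 1.53 FPKM, averaged under 1 FPKM in most groups.

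Genes around the families were read from lists chosen with earlier results in view. Of 4 T-box genes outside the rule, Eomes of trophoblast and mesendoderm was lower after A-485 at early 2-cell (-1.24, adjusted p = 0.0282) and higher at late 2-cell (2.05, adjusted p = 5.8e-05) and after TSA (2.30, adjusted p = 1.1e-06). Mga, a repressor with a T-box, was lower after both drugs at late 2-cell (-1.43 and -2.13). Of the HMG-box relatives Lef1, an effector of Wnt signalling, read 23.2 and 21.03 FPKM with DMSO and 144 and 156 FPKM after A-485 at late 2-cell (2.49, adjusted p = 4.85e-08), and Tcf7l1 rose after TSA (2.96, adjusted p = 0.00132).

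Of 13 partners and corepressors, 1 was lower and none higher at early 2-cell, 3 were lower and none higher at late 2-cell after A-485, and 2 were lower and 1 higher after TSA. Ctnnb1, the beta-catenin gene, was lower after both drugs at late 2-cell (-2.44 and -1.96), Tle4 as well (-1.80 and -1.48), and Pou3f1, a partner of Sox2 in neural cells, rose after TSA (3.73). Of 27 textbook targets, 5 were higher and 1 lower at late 2-cell after A-485 and 8 were higher and 1 lower after TSA. In each of these comparisons 6 were not tested. At early 2-cell 1 was higher and 1 lower after A-485, and 10 were not tested. The shares over all genes tested are those given above for each comparison. Dll1, a Notch ligand, followed the course of Sox2, with -1.79 at early 2-cell, 2.78 at late 2-cell and 3.22 after TSA. Fgf4, the growth factor gene with a Sox2 and Oct4 enhancer, did not, and read 18.4 and 15.0 FPKM with DMSO against 3.50 and 4.13 FPKM after A-485 (-1.62) and 2.85 and 3.53 FPKM after TSA (-2.48).

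Markers of other cells were read beside the late 2-cell results. The 8 cumulus cell markers summed to 3.84 to 3.99 FPKM after A-485 against 0.90 to 1.82 FPKM, with 2 called higher, and to 2.23 to 2.51 FPKM after TSA against 1.28 to 1.44 FPKM, with none called at the same rule. The 5 erythroid markers summed to 6.95 to 9.19 FPKM after TSA against 0.07 to 0.21 FPKM, with 2 called higher and 3 at 0 in both TSA libraries. The 5 fibroblast markers summed to 1.88 to 2.64 FPKM against 0.08 to 1.49 FPKM, with 1 called higher. Sperm markers summed to 3.81 to 5.68 FPKM after TSA against 1.99 to 3.18 FPKM, with none called. The part of such cells in the members' levels was not tested.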

How the data were processed

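Total RNA libraries were made with the SMART-Seq Stranded Kit. The authors trimmed reads with Trimmomatic 0.39, aligned them to GRCm38 with STAR 2.7.8a and estimated expected counts and FPKM per gene with RSEM 1.3.1, and both columns were used as deposited. Whether the counting used strand is not stated. FPKM depends on the transcript length RSEM estimated in each library and on the makeup of the whole library. The authors' ATAC-seq peaks (ENCODE pipeline 2.1.2, optimal IDR peaks of pooled replicates) carry the fold enrichment and the −log10 q value of each peak, deposited as the caller wrote them. CUT&RUN data were not analysed here.

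Expected counts were rounded and tested with edgeR 4.0.16 in R 4.3.3 (quasi-likelihood F test, TMM scaling, Benjamini-Hochberg adjustment over every gene whose libraries summed to 10 counts or more). Genes were called where the adjusted p was below 0.05, the change 2-fold or larger and the mean of either group 1 FPKM or more. The test was tried on simulated counts of the TSA comparison over 20217 genes, where 159 of 200 genes changed 4-fold were recovered (79.5%) with 6 false among 165 calls. The 200 were drawn only from genes above a minimum mean simulated count, and the FPKM cutoff was not applied. Recovery of genes with few counts, as many members are, was thus not tested. Alternatives were DESeq2 1.42.0, total-count scaling, mitochondrial scaling, no count filter, all 16 libraries in one fit, a replicate block, no FPKM cutoff and each library left out. Counting intervals are exact 95% intervals and, like the floor of 3 counts per library, cover counting error only. PCR reads without molecular identifiers are not independent molecules. Replicate libraries differed by more than counting noise, by 9.4 to 19.6 times the variance of counting (chi-square over degrees of freedom). Depth was 13206163 to 32585987 expected counts per library, and the depth of the ATAC-seq libraries is unknown.

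Members with a mean of at least 1 FPKM in a group, or called in a comparison, are named, and the rest are given by counts. The rule for members uses gene symbols alone, but it and the lists were set with earlier results of these data known.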

Additional observations from a re-analysis of the deposited data

Results flagged for a closer look

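The effect of A-485 differed between early and late 2-cell for 12 genes, by edgeR's interaction test itself, 11 with a higher value at late 2-cell, where 7.6% of all genes tested had one, and 1 with a lower (7.38%). Values are the log2 fold change at late 2-cell minus that at early 2-cell, over 8 libraries. It was 4.66 for Pax6 (adjusted p = 8.12e-10), 4.07 for Sox2 (1.22e-07), 4.63 for Sox11 (2.57e-08), 4.82 for Sox1 (8.08e-06) and 4.25 for Tbx20 (4.31e-07). It was 5.67 for Tbx1 (adjusted p = 0.000749), 5.40 for Tbx21 (0.000943), 2.30 for Pax9 (0.014) and 1.87 for Sox8 (0.00159). Sox17 at 10.05 (adjusted p = 1.6e-07) and Sox7 at 12.05 (0.000117) have groups with almost no counts, so the size depends on the prior of the fit. Sox13 alone had a negative difference, -3.99 (adjusted p = 9.36e-06), with a fall at late 2-cell and a change of less than 2-fold at early 2-cell. Pax9 and Sox8 were not called with mitochondrial scaling, where they had 1.29 and 0.84.

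The log2 fold change after TSA was higher than that after A-485, each against its own controls, for 5 of 39 genes tested at late 2-cell by the same test, where 10.8% of all genes tested were called so. The differences were 1.85 for Pax3 (adjusted p = 0.0139), 2.60 for Sox4 (2e-04), 2.62 for Sox8 (2.99e-06), 1.51 for Sox13 (0.00404) and 4.75 for Tbx2 (0.0317). The calls of Pax3 and Tbx2 were each lost without any of several single libraries, and that of Tbx2 also with DESeq2. Sox13 fell under both drugs, and its difference is a smaller fall after TSA (-2.98) than after A-485 (-4.37). Drug, dose, time window and experiment go together and cannot be told apart. The Sox4 controls themselves had a log2 difference of 1.29 between the experiments (adjusted p = 0.0949).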

How the results depend on the processing

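Of 948 values of single named members under the alternatives, 897 kept their direction and side of the threshold, 50 kept the direction and lost the call, and 1 reversed: the TSA minus A-485 difference of Tbx2 was -1.66 without late 2-cell DMSO replicate 1 of the A-485 experiment, and its range over the libraries left out was -1.66 to 8.61. The single values follow only members called by the main rule, so calls gained by other members are not among them. Dropping the FPKM cutoff cannot remove a call, so all values under that alternative had to be kept. For A-485 at late 2-cell, members lower went from 4 to 2 with DESeq2 and 1 with total-count scaling, and members higher from 14 to 8 with mitochondrial scaling. For TSA, members lower went from 2 to 1 with total-count scaling. Mitochondrial scaling raised members lower at early 2-cell against zygote with DMSO from 1 to 6 (it moved the median of all genes by -1.32 and the share of higher calls from 42.9% to 13.4%), those with a smaller late than early A-485 effect from 1 to 3, and those with a larger TSA than A-485 effect from 5 to 9. Members with a smaller TSA than A-485 effect went from 0 to 1 with DESeq2 and without a count filter. Members higher in the TSA controls than in the A-485 controls went from 0 to 1 with DESeq2, with mitochondrial scaling and without a count filter. With the same number of strongest peaks, 3 in place of 5 members had a late 1-cell DMSO promoter peak. The causes were not tested.

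The replicate numbers did not pair the libraries, with correlations of same-numbered deviations of -0.04 to 0.09. With the replicate block members with a smaller TSA effect went from 0 to 1 and members higher in the TSA controls from 0 to 1, and all 80 single values kept their call.

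With each library left out in turn, members lower after A-485 at early 2-cell were 5 to 6, at late 2-cell 12 to 15 higher and 2 to 4 lower, with 2 lower without DMSO replicate 2 and without A-485 replicate 2. After TSA 18 to 20 were higher and 2 lower. From zygote to early 2-cell 9 to 10 rose and 1 fell, and from early to late 2-cell 3 rose and 5 to 8 fell. The late minus early interaction had 9 to 12 larger and 1 smaller. The TSA minus A-485 interaction had 3 to 5 larger, 3 of them without TSA replicate 2, and 0 to 2 smaller. The control comparison had 0 to 1 higher.

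Depth limits the members with a few counts per library.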
